A study of Mus musculus with 8 samples.

Results

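The genes described here are 29 interferon response genes, chosen by name from the 24421 gene symbols of the count table. Earlier results of these data were known when they were chosen. They comprise 4 nucleic acid sensors (Ifih1, Ddx58, Ddx60, Zbp1), 2 transcription factors (Irf7, Stat2), 11 effectors of the IFIT, OAS and MX families, 6 other antiviral effectors (Isg15, Isg20, Rsad2, Cmpk2, Ifi44, Xaf1), 2 negative regulators (Usp18, Trim30a), 3 GTPases induced by interferon gamma (Gbp2, Gbp3, Ifi47) and the chemokine gene Cxcl10. RNA was sequenced from bone marrow cells of the mouse strain C57BL/6 that carry MLL-AF10, a leukaemia fusion of a histone methyltransferase with the AF10 protein. MAflox cells are named in the labels as MLL-AF10 flox cells, and whether they carry Cre-ERT2 is not stated. MATIP cells have MLL-AF10 together with Cre-ERT2, a recombinase that 4-hydroxytamoxifen (4-OHT) switches on, and both copies of Tip60 floxed (Tip60 flox/flox). Tip60 is a histone acetyltransferase, and its gene is Kat5. Each line received 100 nM 4-OHT or its solvent ethanol (EtOH) for 4 days, giving 4 groups of 2 libraries, and the culture medium was methylcellulose containing GM-CSF, IL-3 and SCF. Whether the 2 libraries of a group stem from separate cultures, and how many clones a line holds, is not stated, so p-values reflect only how far these libraries spread, which may be technical.

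Interferons are secreted alarm proteins. Type I interferons bind the receptor Ifnar1/Ifnar2, whose kinases Jak1 and Tyk2 activate transcription factors, Stat2 among them, that join Irf9 in a complex binding the interferon-stimulated response element (ISRE) in front of its target genes. Interferon gamma acts through Ifngr1/Ifngr2 and a different element, the gamma-activated site (GAS), and in myeloid cells many of the target genes also carry a low level of transcription without infection.

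The libraries held 41101309 to 57312490 counts, and the replicates of each group lay close together over all tested genes. Values are given as CPM, the usual depth-normalised read count, scaled with TMM factors. The median level of the interferon response genes differed between replicates with EtOH. It was 0.636 and 0.418 CPM in MAflox EtOH, and 0.283 and 0.603 CPM in MATIP EtOH. Kat5 lay at 41.1 and 41.2 CPM in MATIP EtOH and at 8.10 and 8.32 CPM in MATIP 4-OHT, a log2 change of -2.32 ± 0.09 (SE, edgeR quasi-likelihood test, adjusted p = 6.99e-15). In MAflox it was 43.7 and 41.2 CPM with EtOH and 57.5 and 62.5 CPM with 4-OHT. These counts cover the whole gene, and the floxed exons are not named in the sources used here. Markers of mature neutrophils rose with 4-OHT in both lines (14 of 14 in each), where 33.1% of all tested genes rose in MAflox and 37.5% in MATIP. Their summed levels went from 368 to 370 CPM to 52340 to 56059 CPM in MAflox and from 884 to 1022 CPM to 53466 to 57518 CPM in MATIP. Monocyte and macrophage markers rose for 10 of 12 tested in MAflox, from a sum of 455 to 493 CPM over the 16 listed genes to 5651 to 5815 CPM, and for 12 of 12 in MATIP, from 550 to 561 CPM to 19700 to 20656 CPM. Complement gene C1qa was at 0 in all 8 libraries. Conventional dendritic cell markers summed to 22.0 to 24.9 CPM in MAflox EtOH and 28.7 to 31.7 CPM in MAflox 4-OHT. In MATIP they summed to 12 to 12.5 CPM with EtOH and 201 to 205 CPM with 4-OHT, there mainly Itgax and Cd74. Of the 6 tested, 3 rose and 1 fell in MAflox, and 4 rose and 1 fell in MATIP. Flt3 went down in both lines, in MATIP from 2.35 and 1.49 to 0.687 and 0.355 CPM. Zbtb46, Xcr1, Clec9a, Cd209a and Batf3 stayed under 1 CPM in all 8 libraries. Summed plasmacytoid dendritic cell markers stayed between 212 and 251 CPM in all groups, with Siglech at 0 in both MATIP groups, and members went opposite ways, Tcf4 from 94.1 and 96.7 to 26.2 and 24.3 CPM and Lair1 from 61.3 and 67.3 to 141 and 145 CPM in MAflox. Of the lymphoid lists Cd3e, Cd8a, Ncr1 and Pax5 had no count in any library, while the summed T and NK cell markers, mainly Nkg7, went from 71.5 to 74.2 CPM with EtOH to 139 to 144 CPM with 4-OHT in MAflox and from 43.1 to 53.1 CPM to 15.7 to 15.8 CPM in MATIP. Markers of these cell types thus moved with the treatment, and their part in the results below was not tested. In bulk RNA, a change in the number of cells of a type and a change in RNA per cell cannot be told apart.

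The DNA in front of these genes was examined first, since the ISRE is the element through which most of them are known to be induced. Sequences are from RefSeq on the build GRCm38.p6, and 24 of the 29 genes were matched. The ISRE core was searched as GAAANNGAAA on both strands of the 250 bases before the RefSeq start, and was present for 13 of the 24 genes (54.2%), against 3.46% of 27025 genes in the table and 3.25% of 10391 tested genes. The GAS was searched as TTCNNNGAA, which reads the same on both strands, and was present for 3 of 24 genes (12.5%), those of Ifit2, Isg20 and Oas1a, against 8.13% of all genes and 7.30% of tested genes. A gene counted as a match if any of its RefSeq starts had the element, among these genes and all others alike. A match describes letters only. The 7 windows below all hold a core, and the responses of their genes run from strong rises to a fall. Windows of the 11 matched genes without a core are not printed. Capitals mark the ISRE core in either orientation, and windows stop before the GENCODE start of the gene.
Isg15 (chr4:156200819-156201068, minus strand): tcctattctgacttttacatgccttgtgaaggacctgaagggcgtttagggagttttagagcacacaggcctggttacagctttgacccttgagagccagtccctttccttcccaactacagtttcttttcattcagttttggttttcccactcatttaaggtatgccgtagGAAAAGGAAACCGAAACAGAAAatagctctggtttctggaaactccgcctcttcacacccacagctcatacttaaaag
Ifit1 (chr19:34640639-34640870, plus strand): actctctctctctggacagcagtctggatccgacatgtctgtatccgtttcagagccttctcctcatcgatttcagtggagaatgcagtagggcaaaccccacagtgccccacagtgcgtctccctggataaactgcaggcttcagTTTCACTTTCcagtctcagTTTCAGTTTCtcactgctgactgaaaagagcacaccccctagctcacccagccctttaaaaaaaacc
Ifit3 (chr19:34583279-34583528, plus strand): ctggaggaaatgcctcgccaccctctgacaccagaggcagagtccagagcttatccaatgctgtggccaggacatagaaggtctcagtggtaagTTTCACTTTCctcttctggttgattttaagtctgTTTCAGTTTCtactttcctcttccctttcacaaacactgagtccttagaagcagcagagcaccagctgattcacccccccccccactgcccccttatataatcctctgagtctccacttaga
Ifit3b (chr19:34607707-34607956, plus strand): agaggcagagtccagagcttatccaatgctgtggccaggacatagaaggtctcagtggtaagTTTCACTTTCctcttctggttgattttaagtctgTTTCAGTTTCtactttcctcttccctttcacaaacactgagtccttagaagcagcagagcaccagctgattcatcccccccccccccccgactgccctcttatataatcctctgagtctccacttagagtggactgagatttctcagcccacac
Rsad2 (chr12:26456453-26456702, minus strand): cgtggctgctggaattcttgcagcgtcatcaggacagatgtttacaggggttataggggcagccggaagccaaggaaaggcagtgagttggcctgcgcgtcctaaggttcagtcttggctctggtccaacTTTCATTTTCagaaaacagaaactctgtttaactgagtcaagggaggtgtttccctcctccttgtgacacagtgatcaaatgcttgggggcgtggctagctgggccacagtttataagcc
Cxcl10 (chr5:92348890-92349139, minus strand): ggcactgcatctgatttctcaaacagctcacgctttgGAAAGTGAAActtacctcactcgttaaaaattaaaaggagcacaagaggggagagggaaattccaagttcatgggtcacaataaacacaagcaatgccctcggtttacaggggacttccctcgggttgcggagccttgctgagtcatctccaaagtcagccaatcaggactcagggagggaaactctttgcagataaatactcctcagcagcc
Gbp3 (chr3:142559794-142560025, plus strand): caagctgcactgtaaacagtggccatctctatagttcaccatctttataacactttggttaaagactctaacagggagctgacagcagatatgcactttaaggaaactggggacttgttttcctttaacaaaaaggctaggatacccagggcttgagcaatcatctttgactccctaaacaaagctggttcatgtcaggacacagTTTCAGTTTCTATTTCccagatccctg

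The Isg15 window holds 3 overlapping cores, at positions -78, -72 and -66 from the RefSeq start. Ifit1, Ifit3 and Ifit3b each hold a pair of cores on the reverse strand. The windows of Ifit3 and Ifit3b share an identical run of 169 bases that includes both cores. Gbp3, which fell with 4-OHT in both lines, holds 2 overlapping cores as well, while the window of its other RefSeq start, not printed, holds 0. Among the 13 genes with a core, 11 rose and 1 fell in MATIP, and among the 11 without one 7 rose, 0 fell and 2 were not tested. In MAflox the numbers were 9 rises and 1 fall with a core, and 6 rises and 0 falls without. Of all tested genes, 37.5% rose and 38.6% fell in MATIP, and 33.1% rose and 32.1% fell in MAflox.

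Of the 29 genes, 26 passed the filter on low counts and were tested, and Oasl1, Mx2 and Ifi44 were not. A set of 16 had at least 10 counts in every EtOH library. Several of the others passed through the treated group in which they are high, so the counts below describe the genes and are read beside the share of all 13722 tested genes. In MAflox, 19 of 26 rose with 4-OHT, where 33.1% of all tested genes rose, and 1 fell, where 32.1% did (adjusted p under 0.05, edgeR quasi-likelihood test with Benjamini-Hochberg adjustment). A rise of at least 2-fold was called for 16 of them, against 13.7% of all genes. In MATIP, 22 rose, where 37.5% of all genes did, and 1 fell, where 38.6% did. Here 18 rose at least 2-fold, against 22.6% of all genes. The median log2 change was 1.59 in MAflox and 3.76 in MATIP, beside 0.02 and 0.00 over all tested genes. Both 4-OHT libraries lay above both EtOH libraries for 21 of the 29 genes in MAflox (41.4% of all tested genes) and for 25 of 29 in MATIP (44.2% of all tested genes). In the authors' deposited table of log2 fold changes, 26 of the 29 genes had an adjusted p in MAflox and all 29 in MATIP. At an adjusted p under 0.05, 17 were higher and 1 lower in MAflox, and 22 were higher and 1 lower in MATIP. The genes called there differed in part from those called here. Ifit1 and Usp18 in MAflox and Isg20 in MATIP did not pass in that table, and Ifi44, not tested here, passed in MATIP.

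**Figure D1:**
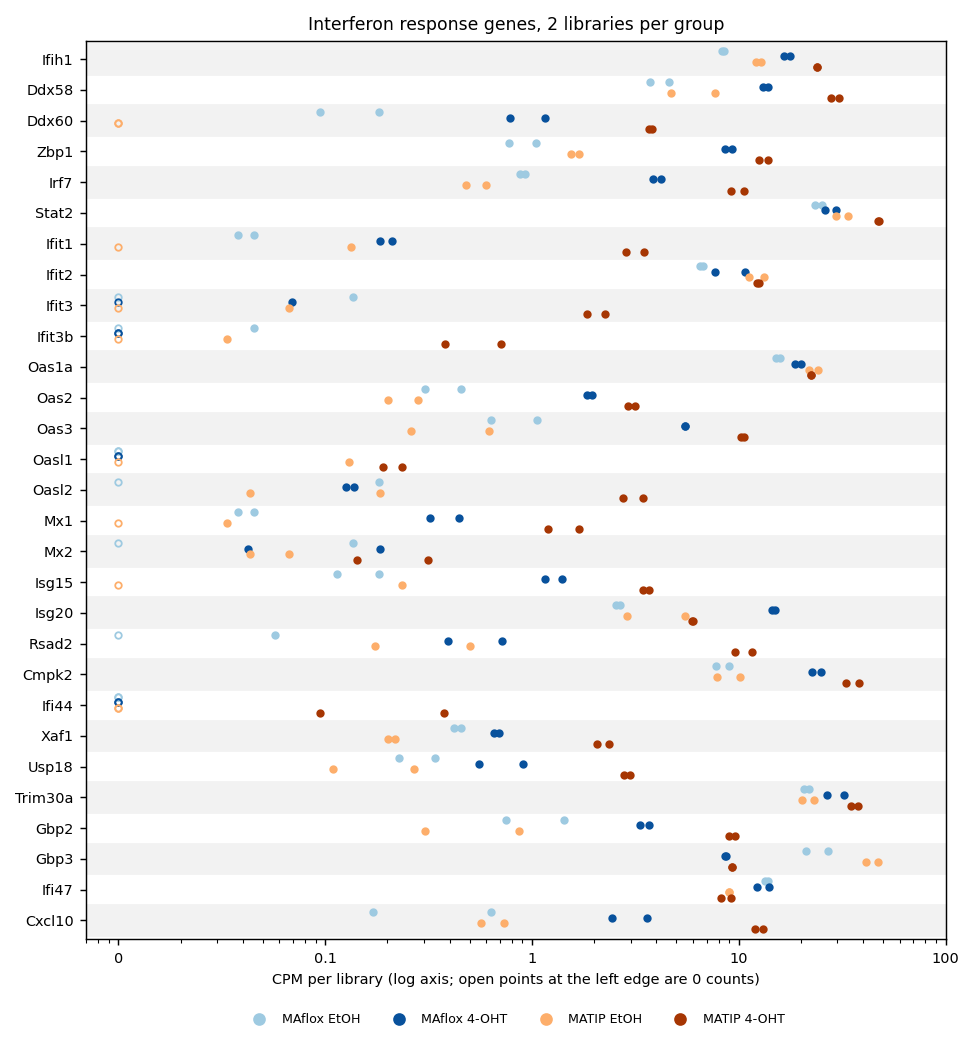
Level of each of the 29 genes in CPM (log axis, 0 counts drawn as open points at the left edge) in each library, 2 libraries per group, ordered by role. MATIP 4-OHT libraries (dark brown) lie to the right of all 6 others for 23 of the 29 genes (30.3% of all tested genes). Gbp3 is the 1 gene with both MATIP EtOH libraries above all others (12.7% of all tested genes).

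The log2 change with 4-OHT was higher in MATIP than in MAflox for 13 genes (28.3% of all tested genes) and lower for 3 (33.6% of all tested genes), by the test of the difference between the 2 responses. The 3 were Isg20 and Oas1a, and Gbp3, whose fall was deeper in MATIP. The median of that difference was 1.31 on the log2 scale, against -0.03 over all genes. A total of 17 genes rose in both lines, 5 were called higher in MATIP alone (Stat2, Ifit3, Ifit3b, Oasl2, Xaf1), and 2 were called higher in MAflox alone (Ifit2, Oas1a). Of all tested genes 33.1% rose in MAflox and 37.5% in MATIP, and the share with each of these patterns was not computed. A call in MATIP alone or MAflox alone is not itself a difference between the lines. For Ifit2 that difference did not pass. With 4-OHT in both lines, 21 of 26 were higher in MATIP than in MAflox, against 38.1% of all genes, and 2 were lower, against 37.5%. Both MATIP 4-OHT libraries exceeded both MAflox 4-OHT libraries for 26 of the 29 genes (44.7% of all tested genes), and exceeded all 6 other libraries for 23 of 29 (30.3% of all tested genes). With EtOH, 9 genes were higher in MATIP (20.3% of all tested genes) and 2 lower (11.7% of all tested genes), with a median log2 difference of 0.07. The 9 were Ifih1, Ddx58, Zbp1, Stat2, Ifit2, Oas1a, Isg20, Rsad2 (38 counts against 3, ratio 11.6, 95% counting interval 3.68 to 58.7) and Gbp3, and the 2 were Ddx60 (0 counts against 13, at least 4.74-fold lower) and Ifi47. This baseline count of 11 fell to 6 when only the 4 EtOH libraries entered the fit.

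**Figure D2:**
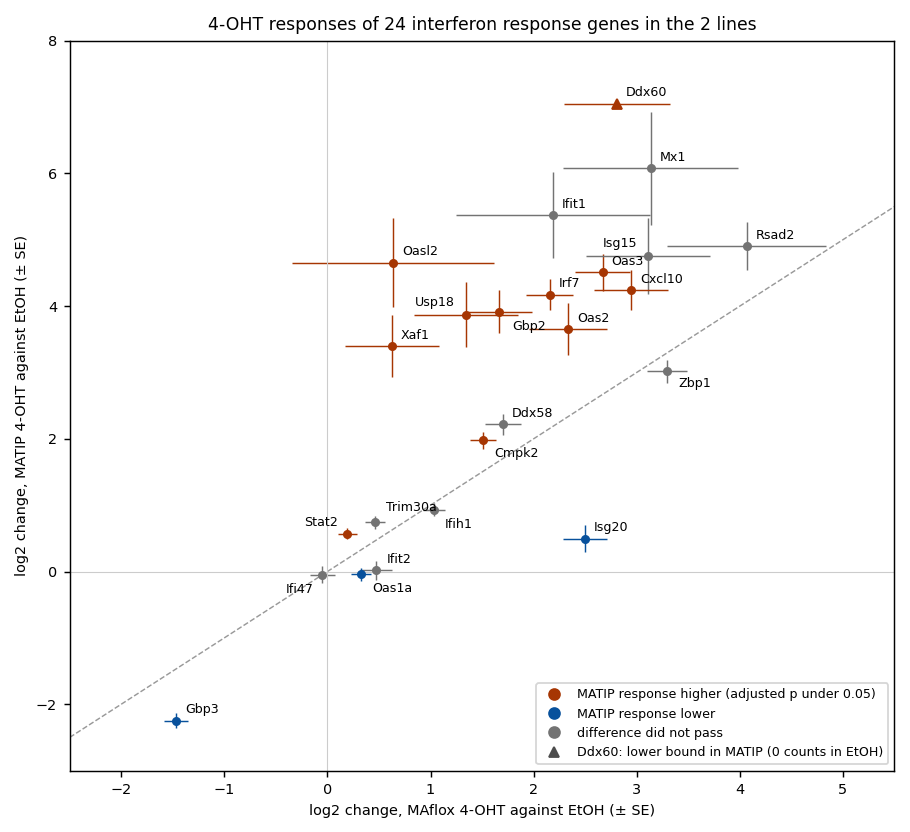
Log2 change with 4-OHT in MAflox (x axis) and MATIP (y axis), ± SE of the edgeR fit, for 24 of the 26 tested genes; Ifit3 and Ifit3b are left out because they held 6 counts or fewer in each MAflox group. Points above the dashed line of equal response have the higher log2 change in MATIP, Isg20 lies farthest below it, Gbp3 is the gene that fell in both lines, and the triangle is a lower bound for Ddx60; Mx1 and Rsad2 rest on 2 or 3 EtOH counts in 1 of the lines.

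Among the sensors, which detect foreign RNA or DNA in the cell, all 4 rose in both lines. Ifih1 encodes MDA5, a sensor of long double-stranded RNA, and lay at 8.45 and 8.32 CPM in MAflox EtOH, 16.5 and 17.8 in MAflox 4-OHT, 12.1 and 12.9 in MATIP EtOH, and 23.8 and 23.9 in MATIP 4-OHT. No groups overlapped, and the log2 changes of 1.03 ± 0.10 in MAflox and 0.93 ± 0.10 in MATIP did not differ beyond their error (difference -0.10 ± 0.14, edgeR adjusted p = 0.567). Ddx58 encodes RIG-I, which recognises RNA with an uncapped end. It rose from 4.61 and 3.72 to 13.9 and 13.1 CPM in MAflox and from 4.72 and 7.72 to 28.1 and 30.5 CPM in MATIP, log2 changes of 1.70 ± 0.17 and 2.22 ± 0.16 whose difference of 0.52 ± 0.24 did not pass (edgeR adjusted p = 0.0639). That difference was called under several alternatives, among them a value of 0.92 without the second MATIP EtOH library. Zbp1, a sensor of left-handed nucleic acid that can trigger necroptosis, rose from 1.04 and 0.779 to 9.23 and 8.57 CPM in MAflox and from 1.54 and 1.69 to 12.5 and 13.8 CPM in MATIP, by 3.30 ± 0.19 and 3.02 ± 0.18. Ddx60, a helicase related to the RIG-I family, was at 0 and 0 CPM in MATIP EtOH and at 3.70 and 3.83 CPM in MATIP 4-OHT, at least 133-fold higher, taking 3 counts in the whole group as the floor. In MAflox it was 0.182 and 0.0950 CPM with EtOH and 0.782 and 1.15 CPM with 4-OHT, a log2 change of 2.81 ± 0.51.

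The transcription factor genes differed in starting level. Irf7, a main activator of interferon genes and itself an interferon target, lay at 0.931 and 0.874 CPM in MAflox EtOH, 3.87 and 4.19 in MAflox 4-OHT, 0.478 and 0.603 in MATIP EtOH, and 9.22 and 10.6 in MATIP 4-OHT. Its rise of 4.17 ± 0.24 in MATIP exceeded that of 2.16 ± 0.23 in MAflox (difference 2.02 ± 0.34, edgeR adjusted p = 4.11e-05). Stat2, a subunit of the complex that binds the ISRE, was abundant throughout, at 23.4 and 25.3 CPM in MAflox EtOH and 29.4 and 26.2 in MAflox 4-OHT. In MATIP it rose from 29.6 and 33.9 to 46.9 and 47.5 CPM, by 0.57 ± 0.09. The MAflox value of 0.19 ± 0.09 missed the threshold (edgeR adjusted p = 0.0652) and passed it under several alternatives, with 0.38 and an adjusted p of 0.000453 once trends on transcript length and GC content were removed. The difference between the lines of 0.38 ± 0.12 then shrank to 0.09 (adjusted p = 0.504), and it was no longer called without the second MAflox EtOH, the second MAflox 4-OHT or the first MATIP EtOH library (0.28 to 0.31).

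The IFIT proteins bind viral RNA and block its translation, and their genes stand side by side on chromosome 19 (mm10). Ifit1 (chr19:34640871-34650009) had 4 counts in the 2 MAflox EtOH libraries together, 18 in MAflox 4-OHT and 8 in MATIP EtOH, and 297 in MATIP 4-OHT, where it lay at 2.84 and 3.49 CPM. It rose by 5.37 ± 0.65 in MATIP, a fitted value that ran to 10.2 without the second MATIP EtOH library, which held all 8 MATIP EtOH counts. The difference of the 2 responses, 3.18 ± 1.44, did not pass (edgeR adjusted p = 0.0633), but was called with DESeq2 (3.26). The call in MAflox (2.19 ± 0.94, edgeR adjusted p = 0.0488) was lost on leaving out any 1 of 6 libraries, those of MAflox and of MATIP 4-OHT (adjusted p = 0.0736 to 0.145). Ifit3 (chr19:34583531-34588731) lay at 0.136 and 0 CPM, 0 and 0.0691, 0 and 0.0670, and 1.85 and 2.27 CPM in MAflox EtOH, MAflox 4-OHT, MATIP EtOH and MATIP 4-OHT. MATIP 4-OHT cells thus held 193 counts against 3 in MAflox 4-OHT, a ratio of 62.8 with a 95% counting interval of 21.2 to 307. Its neighbour Ifit3b (chr19:34607970-34613401) had 52 counts in MATIP 4-OHT, against 2 in MATIP EtOH (ratio 29.6, interval 7.79 to 251) and none in MAflox 4-OHT (at least 16.9-fold higher). Of the 50-base stretches of Ifit3, 51.2% also occur in Ifit3b, so the division of counts between these copies is uncertain. Without the first MAflox EtOH library, which held all 6 and both of their MAflox EtOH counts, the difference of the responses was no longer called for Ifit3 (1.88, edgeR adjusted p = 0.899) or Ifit3b (4.69, adjusted p = 1.0).

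Ifit2 (chr19:34550694-34576419), from the same cluster, behaved otherwise. It lay at 6.74 and 6.51 CPM in MAflox EtOH, 7.71 and 10.7 in MAflox 4-OHT, 11.2 and 13.3 in MATIP EtOH, and 12.2 and 12.6 in MATIP 4-OHT. The groups of MATIP overlapped, with a log2 change of 0.02 ± 0.14, and the MAflox change of 0.47 ± 0.15 (edgeR adjusted p = 0.0109) dropped to 0.24 (adjusted p = 0.221) without the second MAflox 4-OHT library. The difference of the 2 responses, -0.45 ± 0.21, did not pass (adjusted p = 0.0664), but was called with no filter on low counts (-0.44), without the first MAflox 4-OHT library (-0.64) and without the first MATIP EtOH library (-0.58).

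The OAS enzymes make oligoadenylates that activate RNase L, which degrades RNA. Oas3 lay at 0.636 and 1.06 CPM in MAflox EtOH, 5.49 and 5.5 in MAflox 4-OHT, 0.261 and 0.620 in MATIP EtOH, and 10.6 and 10.3 in MATIP 4-OHT. It rose by 2.67 ± 0.27 in MAflox and 4.51 ± 0.28 in MATIP, a difference of 1.84 ± 0.41 (edgeR adjusted p = 0.000705). Oas2 rose from 0.454 and 0.304 to 1.84 and 1.96 CPM in MAflox and from 0.283 and 0.201 to 3.15 and 2.92 CPM in MATIP. Its difference of 1.33 ± 0.57 lay at the threshold (adjusted p = 0.0499) and was lost under most alternatives. Oas1a, the most abundant of the family, lay at 15.8 and 15.2, 20.1 and 18.8, 21.8 and 24.2, and 22.4 and 22.2 CPM in MAflox EtOH, MAflox 4-OHT, MATIP EtOH and MATIP 4-OHT. It shares 57.6% of its 50-base stretches with Oas1g, so its counts may be divided with that copy, and its MAflox rise of 0.33 ± 0.09 fell to 0.14 (edgeR adjusted p = 0.173) after removing trends on length and GC content.

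The OAS-like gene Oasl2 had 8, 12 and 13 counts in MAflox EtOH, MAflox 4-OHT and MATIP EtOH, and 291 in MATIP 4-OHT, at 2.75 and 3.45 CPM. It rose by 4.66 ± 0.67 in MATIP. All 8 MAflox EtOH counts stood in the first library, without which the MAflox response became 5.72 and the difference of the responses turned from 4.02 to -1.08. Oasl1 was too low to test, with 6 counts in MATIP EtOH, 20 in MATIP 4-OHT and 0 in either MAflox group. With 4-OHT it was at least 6.51-fold higher in MATIP than in MAflox.

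The MX proteins are GTPases that trap viral nucleoproteins. Mx1 had 4 counts in MAflox EtOH and 35 in MAflox 4-OHT, a log2 change of 3.14 ± 0.85. In MATIP it had 2 counts with EtOH and 132 with 4-OHT, a ratio of 75.1 with an interval of 20.4 to 627. Its level in MATIP 4-OHT was 1.68 and 1.20 CPM. The difference of the 2 responses, 2.94 ± 1.53, did not pass (edgeR adjusted p = 0.103). Mx2, annotated as a polymorphic pseudogene, held 6, 10, 6 and 22 counts in MAflox EtOH, MAflox 4-OHT, MATIP EtOH and MATIP 4-OHT and was not tested.

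Isg15, a ubiquitin-like protein attached to other proteins during the antiviral response, lay at 0.182 and 0.114 CPM in MAflox EtOH, 1.39 and 1.15 in MAflox 4-OHT, 0 and 0.234 in MATIP EtOH, and 3.67 and 3.43 in MATIP 4-OHT. It rose by 3.11 ± 0.60 and 4.75 ± 0.57, and the difference of 1.64 ± 0.93 did not pass (edgeR adjusted p = 0.136). Without the second MATIP EtOH library, which held all 14 MATIP EtOH counts, the fitted MATIP rise was 10.4 and the difference was 7.26 and called (adjusted p = 0.000969); set against a group at 0, these values are no bound. Rsad2 encodes viperin, an enzyme that makes a chain-terminating nucleotide, and Cmpk2, a nucleotide kinase, is its neighbour on chromosome 12 (mm10, chr12:26442746-26456452 and chr12:26469204-26479837, opposite strands). Rsad2 was at 0 and 0.0570 CPM in MAflox EtOH, 0.718 and 0.391 in MAflox 4-OHT, 0.174 and 0.502 in MATIP EtOH, and 9.62 and 11.6 in MATIP 4-OHT. In MAflox 51 counts stood against 3, a ratio of 18.1 (interval 5.86 to 90.7), and in MATIP the log2 change was 4.90 ± 0.36. The difference of the 2 responses, 0.83 ± 1.43, did not pass (edgeR adjusted p = 0.635). Cmpk2 started higher and rose less, from 7.74 and 8.98 to 22.7 and 25.1 CPM in MAflox (1.51 ± 0.12) and from 7.85 and 10.1 to 33.0 and 38.0 CPM in MATIP (1.98 ± 0.12). The pair thus shared direction in both lines and differed in starting level.

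Isg20 encodes an exonuclease that degrades single-stranded RNA. It was the 1 gene of the set whose MAflox 4-OHT libraries exceeded all 6 others (19.9% of all tested genes). It lay at 2.54 and 2.66 CPM in MAflox EtOH, 15 and 14.5 in MAflox 4-OHT, 2.87 and 5.48 in MATIP EtOH, and 5.92 and 6.00 in MATIP 4-OHT. The rise of 2.50 ± 0.21 in MAflox exceeded that of 0.50 ± 0.21 in MATIP (difference -2.01 ± 0.30, edgeR adjusted p = 9.19e-06). The MATIP rise itself (adjusted p = 0.0377) rested on the first MATIP EtOH library, without which it was 0.12 (adjusted p = 0.559), and it was not called without either MATIP 4-OHT library. Xaf1, a binding partner of the apoptosis inhibitor XIAP, showed the opposite order. It lay at 0.454 and 0.418 CPM in MAflox EtOH, 0.655 and 0.691 in MAflox 4-OHT, 0.217 and 0.201 in MATIP EtOH and 2.37 and 2.07 in MATIP 4-OHT, with a difference of the responses of 2.77 ± 0.66 (adjusted p = 0.00126). Ifi44 had 23 counts in MATIP 4-OHT and 0 in the 3 other groups, at least 8.72-fold above MATIP EtOH.

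The negative regulators rose too. Usp18, which removes Isg15 from proteins and blocks signalling at Ifnar2, lay at 0.227 and 0.342 CPM in MAflox EtOH, 0.909 and 0.553 in MAflox 4-OHT, 0.109 and 0.268 in MATIP EtOH, and 2.80 and 2.98 in MATIP 4-OHT. The MATIP rise of 3.87 ± 0.49 exceeded the MAflox value of 1.34 ± 0.50 (difference 2.53 ± 0.72, edgeR adjusted p = 0.00509), and the MAflox call was lost without the first MAflox EtOH library (1.10, adjusted p = 0.114) or the first MAflox 4-OHT library (0.94, adjusted p = 0.190). Trim30a, which restrains NF-kB signalling, was abundant in every group. It rose from 20.8 and 22.0 to 26.8 and 32.2 CPM in MAflox and from 20.3 and 23.2 to 35.1 and 37.7 CPM in MATIP, by 0.46 ± 0.10 and 0.74 ± 0.10. The difference of 0.28 ± 0.14 did not pass (edgeR adjusted p = 0.0880), but was called with RLE size factors (0.35).

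The 3 GTPases, which attack membranes around intracellular microbes, went 3 ways. Gbp2 (chr3:142620602-142638008) lay at 0.749 and 1.42 CPM in MAflox EtOH, 3.68 and 3.34 in MAflox 4-OHT, 0.304 and 0.871 in MATIP EtOH, and 9.62 and 8.95 in MATIP 4-OHT. Its neighbour Gbp3 (chr3:142560026-142573209) ran the other way, at 26.9 and 21.1, 8.60 and 8.73, 47.1 and 41.3, and 9.29 and 9.29 CPM in the same order. Gbp2 rose by 1.67 ± 0.31 and 3.92 ± 0.32 while Gbp3 fell by 1.47 and 2.25 on the log2 scale (SE 0.12 and 0.11), and both responses were larger in MATIP (differences of 2.25 ± 0.46 and -0.78 ± 0.16, edgeR adjusted p = 0.000302 and 0.000356). Gbp3 was higher in MATIP than in MAflox with EtOH (0.88 ± 0.11, adjusted p = 2.56e-06), and with 4-OHT the log2 difference of 0.10 ± 0.12 did not pass (adjusted p = 0.467), although it was 0.33 and called (adjusted p = 0.0217) after removing trends on length and GC content. Ifi47, an immunity-related GTPase, was not called with 4-OHT in either line, at 13.4 and 13.8 against 12.2 and 14 CPM in MAflox and 9.02 and 9.03 against 8.22 and 9.21 CPM in MATIP, and its log2 difference between MATIP and MAflox was -0.59 ± 0.12 at both treatments. After removing trends on length and GC content the difference with 4-OHT became -0.23 (edgeR adjusted p = 0.0867), and the MAflox change became -0.28 and was called (adjusted p = 0.0343).

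Cxcl10, a chemokine that attracts activated T cells, lay at 0.636 and 0.171 CPM in MAflox EtOH, 2.43 and 3.59 in MAflox 4-OHT, 0.565 and 0.737 in MATIP EtOH, and 13.1 and 12 in MATIP 4-OHT. The rises of 2.95 ± 0.36 and 4.24 ± 0.31 were called in both lines. Their difference of 1.30 ± 0.52 (edgeR adjusted p = 0.0375) fell to 0.12 (adjusted p = 0.916) without the first MAflox EtOH library. With 4-OHT, Cxcl10 was higher in MATIP than in MAflox by 2.06 ± 0.26 (adjusted p = 6.32e-07).

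Among the tested genes, those of low mean level had the larger median changes. The 11 tested genes with a mean of at least 5 CPM over the 8 libraries had a median log2 change of 0.47 in MAflox and 0.57 in MATIP, with 8 and 7 rises and 1 fall in each. The 15 tested genes below that mean had medians of 2.19 and 4.66, with 11 and 15 rises and 0 falls. The filter let several of them through by their treated level, so their rises are not independent of the filter. Of all tested genes, 33.1% rose and 32.1% fell in MAflox, and 37.5% rose and 38.6% fell in MATIP. The shares among all genes of the same level were not computed. Per kilobase of exon, the highest levels in MATIP 4-OHT were those of Oas1a (11.8 CPM per kilobase), Trim30a (8.85), Cmpk2 (8.53), Stat2 (7.97), Cxcl10 (5.56) and Isg15 (4.70). In MATIP EtOH the order began with Gbp3 (13.5), Oas1a (12.2), Stat2 (5.36) and Trim30a (5.28), and in MAflox EtOH with Oas1a (8.22), Gbp3 (7.35), Ifi47 (5.49) and Trim30a (5.20). Summed over the 29 genes, the level was 136 and 133 CPM in MAflox EtOH, 205 and 213 in MAflox 4-OHT, 171 and 187 in MATIP EtOH, and 315 and 331 in MATIP 4-OHT.

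The rest of the pathway was read from a list of 139 further genes, of which 112 were tested. In MAflox 58 rose and 30 fell, and in MATIP 67 rose and 29 fell, with median log2 changes of 0.38 and 0.66. These counts and those of the classes below stand beside the 33.1% of all tested genes that rose and 32.1% that fell in MAflox, and the 37.5% and 38.6% in MATIP. The interferon genes themselves were almost silent. Of 20 ligand genes none passed the filter, 16 were at 0 counts in all 8 libraries, Ifnb1 and Ifng among them, and no ligand held more than 5 counts in any group. A count of 0 over a group allows a level of up to 0.0284 to 0.0331 CPM (3 counts).

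**Figure D3:**
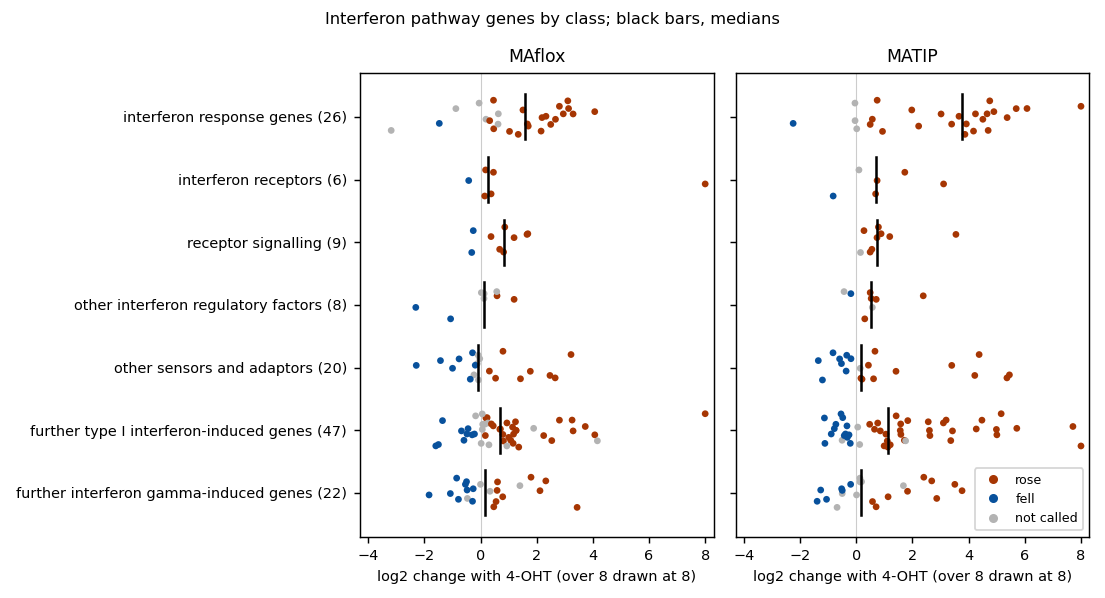
Log2 change with 4-OHT of the tested interferon response genes and of the other pathway genes by class, in MAflox (left) and MATIP (right); numbers in brackets are genes tested, black bars are medians, colours mark genes that rose, fell or were not called, and values over 8 are drawn at 8. The interferon response genes have medians of 1.59 and 3.76, and the further type I genes have medians of 0.71 and 1.12 with calls on both sides of 0.

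Of the receptor chains described here, Ifnar1 and Ifngr1 changed in opposite directions in the lines. Ifnar1 lay at 70.7 and 72.7 CPM in MAflox EtOH, 52.6 and 54.6 in MAflox 4-OHT, 76.2 and 74.0 in MATIP EtOH, and 126 and 125 in MATIP 4-OHT. It fell by 0.42 in MAflox and rose by 0.74 in MATIP (log2, SE 0.06 each; difference 1.16 ± 0.08, edgeR adjusted p = 7.23e-10). Ifnar2 rose by 0.18 ± 0.06 in MAflox and had 0.09 ± 0.06 in MATIP (edgeR adjusted p = 0.185). Of the interferon gamma receptor, Ifngr2 rose in both lines (0.46 ± 0.07 and 1.73 ± 0.07), whereas Ifngr1 rose in MAflox (0.15 ± 0.05) and fell by 0.82 in MATIP, from 409 and 391 to 224 and 229 CPM.

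In the signalling step, 7 of 9 genes rose in MAflox and 2 fell, and 8 rose and 0 fell in MATIP. Irf9 rose by 0.68 ± 0.13 and 0.56 ± 0.13, and the difference of -0.13 ± 0.19 did not pass (edgeR adjusted p = 0.579). Jak1 rose more in MATIP (0.37 ± 0.06 and 1.19 ± 0.06), and Tyk2 fell by 0.31 in MAflox with 0.15 ± 0.07 in MATIP. Irf1, an activator of interferon gamma targets, rose by 1.20 ± 0.09 and 0.71 ± 0.09, and Irf3, the factor that starts interferon transcription, had 0.13 ± 0.07 in MAflox and fell by 0.19 in MATIP.

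Other interferon-induced genes did not all follow. Of 47 further type I genes tested, 27 rose and 9 fell in MAflox and 30 rose and 13 fell in MATIP. Slfn2, a regulator of cell quiescence, rose from 46.9 and 48.1 to 461 and 473 CPM in MAflox and from 53.1 and 62.8 to 598 and 648 CPM in MATIP. The membrane proteins Ifitm1 and Ly6e did not rise in MATIP: Ifitm1 rose by 1.16 ± 0.06 in MAflox and fell by 0.21 in MATIP, and Ly6e rose by 0.19 ± 0.06 and fell by 1.14. Of 22 further gamma-induced genes tested, 9 rose and 9 fell in MAflox and 9 rose and 6 fell in MATIP. Those of antigen presentation were split: B2m, the light chain of MHC class I, rose by 0.79 ± 0.06 and 1.13 ± 0.06, while the immunoproteasome subunit Psmb8 fell by 0.28 and 1.39 and the peptide transporter Tap2 fell by 0.48 and 1.27. Of 20 further sensors and adaptors, 8 rose and 7 fell in MAflox and 11 rose and 8 fell in MATIP, and the MAflox shares were near those of all tested genes. Their most abundant members were Unc93b1, which carries Toll-like receptors to endosomes (0.80 ± 0.07 and 0.67 ± 0.07), Trim25, a RIG-I ubiquitin ligase (-0.19 ± 0.06 and 0.43 ± 0.06), and the adaptor Myd88 (0.32 ± 0.06 and -0.36 ± 0.07).

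**Figure D4:**
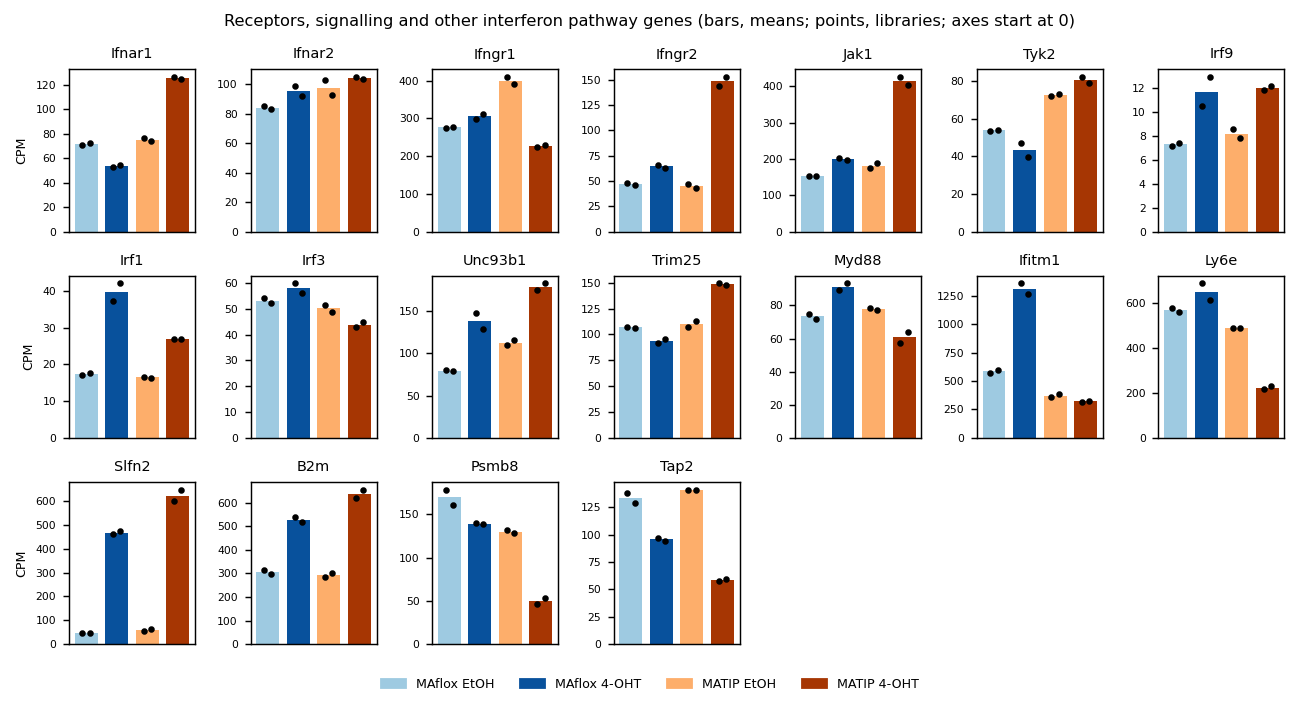
CPM of 18 further pathway genes in the 4 groups; bars are means of 2 libraries, points are libraries, and every axis starts at 0. Ifnar1, Ifngr2 and Jak1 are highest in MATIP 4-OHT, Irf1 in MAflox 4-OHT, and Psmb8, Tap2 and Ly6e are lowest in MATIP 4-OHT.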

How the data were processed

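RNA-seq counts of 8 libraries were used. The deposited count table holds whole-number counts per gene symbol. The submitters' processing notes name the build mm10, the tools featureCounts 1.6.4 and HISAT2 2.1.0, Trimmomatic 0.38.0, and DESeq2. How strand and multi-mapping reads were treated is not given in the sources used here, so the Cxcl10, Usp18, Irf7, Gbp2, Oasl1 and Ifi47 counts may include reads of genes that overlap them on the opposite strand. Per the file headers another table holds the authors' log2 fold changes and adjusted p-values, used only where named. Of the count table's columns 23 are empty, and 0 filled ones belong to no sample. Groups and replicate numbers come from the sample titles.

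Genes passing edgeR's filterByExpr (minimum count 10, minimum total 15) were tested with edgeR 4.0.16 (R 4.3.3), TMM scaling and the quasi-likelihood test on all 8 libraries, with 1 coefficient per group (biological coefficient of variation 5.98%, residual degrees of freedom 4). P-values were adjusted by Benjamini-Hochberg over 13722 genes and called at 0.05. An SE is the log2 change over the square root of F. A group at 0 is set to 3 counts to give a lower bound of a fold, and a group with 1 to 3 counts gives a ratio with a 95% counting interval. Between 76.2% and 81.3% of counts from 1 to 10 were even numbers, so these intervals and floors, which cover counting error of independent counts only, may be too narrow. The fit was also run on simulated data in which few genes changed, all in MATIP 4-OHT. That run does not cover changes as widespread as those called here. The gene lists and members were chosen with earlier results of these data known. Named pathway genes were Ifnb1, Ifng, the receptors, Jak1, Tyk2, Irf9, Irf1, Irf3 and the 3 genes of highest mean CPM in each other class, apart from 1 gene not reported here; all 29 members are described. Gene positions and exon lengths come from GENCODE M21. Replicates were distinct libraries, since their chi-square was 7.33 to 13.6 times its degrees of freedom. Alternatives were DESeq2 1.42.0, other size factors and filters, fits on fewer libraries, a replicate block, removal of length and GC trends, and halved counts.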

Additional observations from a re-analysis of the deposited data

Results flagged for a closer look

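By the test of the difference between the 2 responses, 61.9% of all tested genes were called in either direction. Near that share, the 4-OHT response of 16 of the 26 tested interferon response genes differed between MATIP and MAflox (log2, MATIP response minus MAflox response, edgeR quasi-likelihood test, adjusted over all genes). For 8 of them the call held under every alternative tried. These were Ddx60 (7.70, adjusted p = 0.000131, a fitted value that rests on 0 counts in MATIP EtOH and is no bound), Xaf1 (2.77, 0.00126), Usp18 (2.53, 0.00509), Gbp2 (2.25, 0.000302), Irf7 (2.02, 4.11e-05), Oas3 (1.84, 0.000705), Gbp3 (-0.78, 0.000356) and Isg20 (-2.01, 9.19e-06). The other 8 were lost or turned under at least 1 alternative. They were Ifit3b (7.87, adjusted p = 0.0423) and Ifit3 (6.57, 0.00451), both fitted on few counts, Oasl2 (4.02, 0.0118), Oas2 (1.33, 0.0499), Cxcl10 (1.30, 0.0375), Cmpk2 (0.46, 0.0262), Stat2 (0.38, 0.0130) and Oas1a (-0.37, 0.0200). By the same test the response of monocyte and macrophage markers was higher in MATIP for 11 of 12 tested and lower for 0, and that of mature neutrophil markers was higher for 4 and lower for 8 of 14, beside 28.3% and 33.6% of all tested genes. The part of these markers in the differences was not tested.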

How the results depend on the processing

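Over the alternatives other than leaving out a library, the genes called numbered 18 to 21 in MAflox, 22 to 24 in MATIP, 14 to 19 for the difference, 6 to 14 for the EtOH baseline and 23 to 25 between the treated lines; the baseline count was 6 with only the compared libraries. Leaving out 1 library gave 18 to 21, 22 to 24, 11 to 18, 8 to 13 and 21 to 26. With the replicate block the counts were 18, 23, 15, 11 and 23. All these counts are of calls in either direction. In the main fit, 65.2%, 76.1%, 61.9%, 32% and 75.5% of all tested genes were so called, in the same order. Same-numbered libraries did not deviate together (correlations of -0.00230, -0.0391, 0.0339 and 0.0146). Each correlation rests on 1 pair of libraries per group, so it cannot tell whether same-numbered libraries share an origin. A fit on only the compared libraries does not apply to the difference, which uses all 8. Calls held under every alternative for 16 of 20 genes in MAflox, 22 of 23 in MATIP, 8 of 16 for the difference, 7 of 11 in EtOH and 17 of 23 between the treated lines. The median between the treated lines was 1.26 with DESeq2 and with RLE factors, 1.15 with a filter of 1 CPM, 1.09 without length and GC trends, 1.13 with halved counts (chosen after seeing the data), and 1.12 to 1.26 without 1 library. Without 1 library the medians were 1.59 to 2.03 in MAflox (2.03 without the first MAflox EtOH library), 3.43 to 3.88 in MATIP, 0.78 to 1.67 for the difference and -0.49 to 0.55 in EtOH (-0.49 without the second MATIP EtOH library). Turned signs belonged to small or low-count values, and 1 of them was called. Without 1 library, MAflox values ran from -4.69 to 3.81 for Ifit3, -4.20 to 0.00 for Ifit3b, -0.45 to 5.72 for Oasl2 and -0.133 to 0.051 for Ifi47; MATIP values from -0.11 to 0.14 for Ifit2, -0.122 to 0.0228 for Oas1a and -0.101 to 0.0688 for Ifi47; differences from -1.08 to 5.42 for Oasl2 (the called one), -2.86 to 1.84 for Rsad2 and -0.0648 to 0.119 for Ifi47. In EtOH the ranges were -4.62 to 3.96 for Ifit3, -3.14 to 3.05 for Ifit3b, -5.79 to 0.68 for Isg15, -0.0752 to 0.114 for Trim30a, -0.91 to 5.60 for Oasl2, -4.04 to 1.63 for Ifit1 and -0.0926 to 0.271 for Cmpk2. In MATIP, Oas1a was 0.0294 with DESeq2, 0.0291 with RLE factors, 0.0130 with the 1 CPM filter and 0.0016 without length and GC trends, and Ifi47 was 0.0247, 0.0252, 0.0092 and 0.0110. Trim30a in EtOH was -6.57e-05 with DESeq2, -0.00360 with no filter and -0.00929 with only the compared libraries. The cause was not tested beyond the fewer libraries or genes each setting holds.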

Other observations

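Some further pathway genes, chosen here after their values were seen, were far higher in MATIP 4-OHT than in the 3 other groups. Rtp4, an interferon-induced inhibitor of flaviviruses, held 1, 2 and 0 counts in MAflox EtOH, MAflox 4-OHT and MATIP EtOH and 196 in MATIP 4-OHT (2.39 and 1.87 CPM). Tlr3, the endosomal receptor of double-stranded RNA, held 10, 8 and 12 counts in the same 3 groups and 466 in MATIP 4-OHT (5.55 and 4.58 CPM), with a difference of the responses of 5.69 (edgeR adjusted p = 5.17e-05). Slfn5 lay at 0.908 and 0.760 CPM in MAflox EtOH, 1.33 and 1.38 in MAflox 4-OHT, 0.913 and 0.938 in MATIP EtOH, and 16.8 and 19.1 in MATIP 4-OHT (difference 3.56, adjusted p = 1.11e-08).

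The DNA-sensing adaptor Tmem173 (STING) fell in both lines, from 109 and 111 to 43.2 and 38.7 CPM in MAflox and from 99.9 and 91.6 to 38.5 and 36.5 CPM in MATIP (difference 0.07, edgeR adjusted p = 0.546). Mavs, the adaptor of the RIG-I family, fell in MAflox from 26.4 and 27.4 to 14.6 and 12.4 CPM and had a log2 value of 0.14 in MATIP (difference 1.14, adjusted p = 3.82e-07).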
